A study of Mus musculus with 10 samples.

Results

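Cdx1, Cdx2, Gata4, Gata6, Hnf4a, Hnf4g, Klf4 and Klf5 encode transcription factors of intestinal identity and of position along the gut, and their transcript levels were compared across RNA-seq libraries of mouse ileal crypts with different Stat5 genotypes. The 8 genes were taken by name, through the Ensembl IDs of the files, from 28987 gene IDs in all. All 8 were above 0 in all 10 libraries and passed the filter on low values, as did 13056 genes in total. STAT5A and STAT5B are transcription factors switched on by cytokine and growth hormone receptors. The 5 OE libraries came from mice labelled VilCreER;icS5 (STAT5IEC+++), which the design text calls overexpressing. The 2 KO libraries came from VilCreER;Stat5 (STAT5IEC-/-) mice and the 3 Ctrl libraries from VilCreER;Stat5 (STAT5+/+) mice. VilCreER is an inducible Cre recombinase under the villin promoter, which is active in the gut epithelium, and all 3 groups carry it. The labels neither spell out the icS5 allele nor name a control of its line, and they give no inducing agent. Every mouse is labelled male, C57Bl6 and 12 weeks old. Crypts, the epithelial pits where stem cells, progenitors and Paneth cells sit, were shaken off the tissue in PBS with 10 mM EDTA at 37 C for 30 min. No label ties the libraries of a group to separate animals, so each p-value here measures only the spread between samples, part of which may be technical.

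The 8 genes are 4 pairs of relatives. CDX1 and CDX2 are homeodomain factors that hold cells to an intestinal rather than a gastric fate, with CDX1 richest in crypts. GATA4 and GATA6 are zinc finger factors. In mice GATA4 is present in duodenum and jejunum and fades in the distal ileum, and its loss from the jejunum brings on ileal genes, whereas GATA6 is made along the whole small intestine. HNF4A and HNF4G are nuclear receptors that bind shared sites and keep up the genes of absorption and of the brush border. KLF4 is a zinc finger factor of non-dividing epithelial and goblet cells, and its relative KLF5 is a factor of dividing crypt cells.

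The files hold TPM, which set each transcript against the total of its library and allow for its length. They were divided here by a median-ratio factor for each library and are called scaled TPM. Such values do not keep read numbers, and library depth is unknown. In bulk RNA, fewer cells of a type and less RNA per cell cannot be told apart. The library labelled Ctrl 2 stood apart. Mitochondrial transcripts made up 83.7% of its TPM, against 43.3% to 57.0% in the other 9, and 8263 genes reached 1 TPM in it, against 11050 to 11932. Stat5a was at 1.56, 2.10, 3.56, 2.81 and 2.81 scaled TPM in OE, at 0.637 and 0.336 in KO, and at 1.51, 2.60 and 1.07 in Ctrl. Stat5b was at 1.49, 3.50, 4.71, 5.53 and 2.65 in OE, at 0.482 and 0.430 in KO, and at 1.72, 1.76 and 0.971 in Ctrl. In scaled TPM both KO libraries were thus below all Ctrl libraries for both genes. As deposited KO 1 was above Ctrl 2 for both, at 0.771 against 0.765 TPM for Stat5a and at 0.583 against 0.517 TPM for Stat5b. The library labelled OE 1 lay within the Ctrl range for both genes. The summed TPM of 4 Y-linked genes was 0.250 in OE 3, 0.140 in OE 4 and 3.45 in Ctrl 3, against 32.3 to 131 in the other 7, although all mice are labelled male. Values without Ctrl 2 stand beside the results, and those with the other libraries left out or with a term for low Y-linked levels are given in the closing section.

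The tissue label was set against genes of neighbouring organs. Of 10 stomach genes, 6 were at 0 in all libraries (Gkn1, Gkn2, Tff1, Tff2, Muc5ac and Atp4b) and 0 passed the filter. Of the colon genes, Scnn1b and Scnn1g were at 0 in all libraries. All 7 ileal genes passed. Fabp6, the ileal bile acid binding protein, was at 1401, 496, 359, 584 and 603 scaled TPM in OE, at 603 and 244 in KO, and at 480, 41.6 and 739 in Ctrl. Slc10a2, the ileal bile acid transporter, was at 72.5, 33.0, 29.1, 44.8 and 37.6 in OE, at 41.4 and 55.7 in KO, and at 30.9, 1.13 and 33.3 in Ctrl. Both genes were thus lowest in Ctrl 2, and the other 9 libraries held Slc10a2 at 29.1 scaled TPM or more. The remaining ileal genes were mixed in scaled TPM. Slc51a was also lowest in Ctrl 2, at 145, but Amn and Cubn were highest there, at 75.7 and 57.0. Slc51b and Fgf15 were neither lowest nor highest there. In the same library Fabp1, a fatty acid binding protein of duodenum and jejunum, was at 772, against 2.32 to 24.1 in the other 9. List medians and the main differences of the 8 genes against Ctrl are therefore also given without Ctrl 2.

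The 8 genes covered a wide range of levels in these crypts. Over all 10 libraries the order of mean scaled TPM was Hnf4g at 99.5 ± 42.6, Klf5 at 89.1 ± 18.6, Hnf4a at 80.0 ± 8.35, Cdx2 at 67.0 ± 14.8, Klf4 at 47.8 ± 15.4, Cdx1 at 33.3 ± 8.81, Gata4 at 17.1 ± 17.5 and Gata6 at 11.5 ± 5.20 (SD, n = 10). The highest lay at the 94.8th percentile of all tested genes and the lowest at the 61.4th. Only the step between Cdx2 and Klf4, 19.1 scaled TPM, was larger than the larger SD of the neighbours over the 10 libraries. That SD does not compare genes within a library. Within libraries Cdx1 was above Gata4 in all but Ctrl 2, and Klf4 was above Cdx2 in OE 5 and Ctrl 2. The order was not fixed: the first place went to Hnf4g in OE 3, KO 2, Ctrl 1 and Ctrl 2, to Klf5 in OE 2, OE 4, KO 1 and Ctrl 3, to Cdx2 in OE 1 and to Hnf4a in OE 5.

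**Figure D1:**
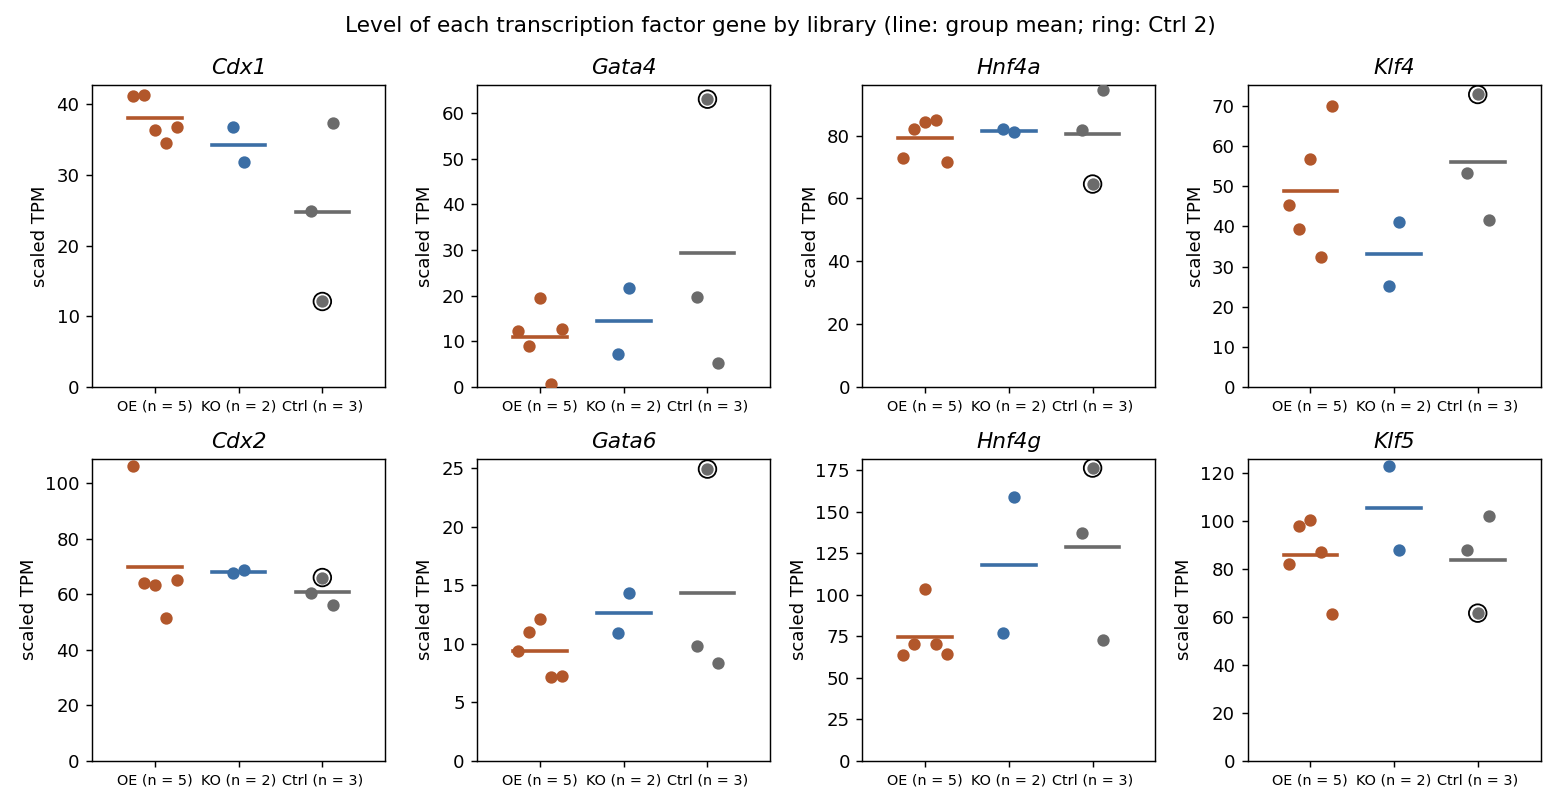
Scaled TPM of each of the 8 genes (y axis, from 0), with 1 point for each library of OE (n = 5), KO (n = 2) and Ctrl (n = 3). Lines mark group means and a ring marks Ctrl 2, which holds the lowest Cdx1 of all 10 libraries, at 12.1, and on this scale but not as deposited the highest Gata4, at 63.1.

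Of the pair of HNF4 genes, Hnf4a had the smallest spread of the 8 in scaled TPM and Hnf4g ranged widely between libraries. Hnf4a (ENSMUSG00000017950, chromosome 2, 163506808 to 163572910, plus strand, mm10) was at 72.9, 82.0, 84.3, 85.0 and 71.7 scaled TPM in OE, at 82.0 and 81.0 in KO, and at 81.9, 64.6 and 94.6 in Ctrl. The groups overlapped, with means of 79.2 ± 6.41 in OE, 81.5 ± 0.728 in KO and 80.4 ± 15.1 in Ctrl (here and below, SD over 5, 2 and 3 libraries). Its coefficient of variation, the SD as a share of the mean, was 10.4% over 10 libraries and 8.25% without Ctrl 2, against medians of 40.4% and 34.2% over all tested genes. Among the 728 genes whose mean lay within 1.5-fold of its own without Ctrl 2, that put it at the 0.137th percentile of spread. For the TPM as deposited the coefficient of variation without Ctrl 2 was 18.8%, above the 10.5% of Cdx2, so its place as the most even depends on the scaling. An antisense gene, Hnf4aos, overlaps Hnf4a and was at 0 to 3.00 TPM in the files. Whether counting used strand is not given in the sources used here, so reads of the overlap cannot be assigned.

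Hnf4a has an upstream and a downstream start in the mouse genome, and the 250 bases before each are shown because gene-level TPM pool transcripts from both. The sequences are from RefSeq (GRCm38.p6, the assembly also called mm10). Capitals mark the letters AGATAA, a core read by GATA factors, and GTTAAT, a core read by HNF1 factors, on either strand.
Hnf4a upstream start, chr2:163506607-163506856, plus strand: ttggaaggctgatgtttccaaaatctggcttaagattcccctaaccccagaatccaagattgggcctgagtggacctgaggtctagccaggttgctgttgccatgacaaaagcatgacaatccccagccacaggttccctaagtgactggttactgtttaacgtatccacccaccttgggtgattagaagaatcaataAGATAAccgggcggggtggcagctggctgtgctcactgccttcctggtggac
Hnf4a downstream start, chr2:163546905-163547154, plus strand: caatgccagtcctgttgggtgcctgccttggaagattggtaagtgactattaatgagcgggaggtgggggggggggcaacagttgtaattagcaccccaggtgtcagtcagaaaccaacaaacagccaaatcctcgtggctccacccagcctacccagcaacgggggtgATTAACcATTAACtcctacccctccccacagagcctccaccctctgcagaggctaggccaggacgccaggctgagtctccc
The windows end at the RefSeq starts. The upstream RefSeq start lies 49 bases inside Hnf4a as annotated by GENCODE, whose coordinates are those given above. The upstream window holds AGATAA beginning 52 bases before the RefSeq start, so that it spans the GENCODE start, and 9.99% of 32851 mouse promoter windows of this length hold these letters. The downstream window holds GTTAAT in reverse complement, ATTAAC, beginning at 81 and again at 74 bases before the RefSeq start, and 6.43% of windows hold GTTAAT at all. RefSeq windows were matched for 3 of the 8 genes, 1 each for Cdx2 and Klf4 besides these. The Cdx2 window holds GTTAAT once, 30 bases before the RefSeq start. Neither the letters TTCNNNGAA, read by STAT factors and present in 7.02% of windows, nor TTTATNG of CDX factors (9.81%) nor CAAAGT of HNF4 factors (12.6%) occur in any of the 4 windows. These are matches of letters in short windows and no record of binding.

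Hnf4g (ENSMUSG00000017688, chromosome 3, 3508030 to 3658052, plus strand) was at 63.5, 70.4, 104, 70.1 and 64.5 scaled TPM in OE, at 77.0 and 159 in KO, and at 137, 176 and 72.8 in Ctrl. In scaled TPM, all OE libraries but OE 3 lay between 63.5 and 70.4, below every KO and Ctrl library, and OE 3 lay among those. The means were 74.4 ± 16.6 in OE, 118 ± 58.1 in KO and 129 ± 52.3 in Ctrl. Its coefficient of variation was 42.9%, and 38.4% without Ctrl 2, above that of 79.9% of genes of like level. As a ratio within each library, which no scaling between libraries can move, Hnf4a over Hnf4g was 1.15, 1.16, 0.813, 1.21 and 1.11 in OE, 1.07 and 0.509 in KO, and 0.598, 0.366 and 1.30 in Ctrl. Hnf4g thus exceeded its relative in OE 3, KO 2, Ctrl 1 and Ctrl 2, and the ratios of the 3 groups overlapped.

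**Figure D2:**
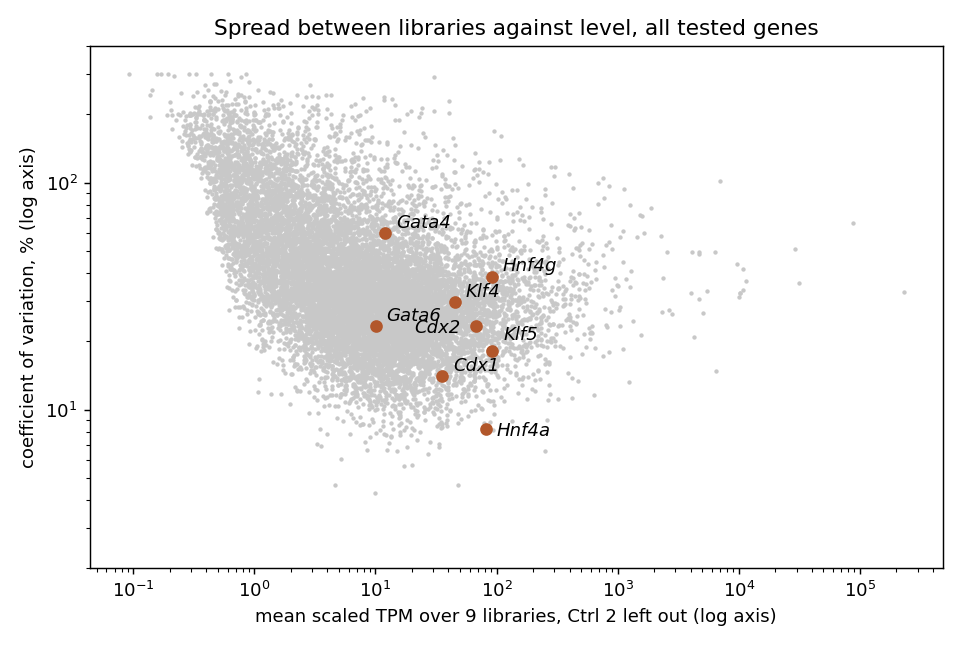
Coefficient of variation (y axis, %, log axis) against mean scaled TPM over 9 libraries without Ctrl 2 (x axis, log axis), with 1 grey point for each tested gene and the 8 transcription factor genes in colour. On this scale Hnf4a sits at the lower edge at 8.25%, while Gata4 sits high for its level at 59.9%.

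Gata4 varied most of the 8. Gata4 (ENSMUSG00000021944, chromosome 14, 63198922 to 63271692, minus strand) was at 12.4, 9.11, 19.5, 0.651 and 12.8 scaled TPM in OE, at 7.28 and 21.6 in KO, and at 19.7, 63.1 and 5.18 in Ctrl. OE 4 was below every other library and Ctrl 2 above, and the remaining 8 ran from 5.18 in Ctrl 3 to 21.6 in KO 2. The means were 10.9 ± 6.84 in OE, 14.5 ± 10.2 in KO and 29.3 ± 30.1 in Ctrl. The height of Ctrl 2 depends on the scaling, because as deposited Gata4 was at 18.6 TPM there, against 24.1 in Ctrl 1 and 22.8 in OE 3. OE 4 was the lowest on both scales, at 0.771 TPM as deposited. The coefficient of variation of Gata4 without Ctrl 2, 59.9%, exceeded that of 92.3% of genes of like level.

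Gata6 (ENSMUSG00000005836, chromosome 18) was at 9.38, 11.1, 12.1, 7.17 and 7.22 scaled TPM in OE, at 11.0 and 14.3 in KO, and at 9.86, 24.9 and 8.34 in Ctrl. Apart from Ctrl 2, Gata6 stayed within 7.17 to 14.3 scaled TPM. As deposited Ctrl 2 was instead its lowest library, at 7.34 TPM, against 7.79 to 15.0 in the others. In scaled TPM the coefficient of variation of Gata6 without Ctrl 2 was 23.3%, below the median of 34.2% for all genes. The means were 9.38 ± 2.22 in OE, 12.6 ± 2.38 in KO and 14.4 ± 9.17 in Ctrl. Gata4 over Gata6 within a library was 1.32, 0.825, 1.61, 0.0907 and 1.77 in OE, 0.665 and 1.51 in KO, and 2.00, 2.53 and 0.621 in Ctrl. The ratio thus lay between 0.621 and 2.53 except in OE 4, where Gata6 stayed at 7.17 and Gata4 was at 0.651 scaled TPM.

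Genes of known position were read beside Gata4. The mean log2(scaled TPM + 1) of 8 genes of duodenum and jejunum was 4.43, 3.74, 4.56, 2.20 and 3.83 in OE, 2.91 and 3.18 in KO, and 4.24, 7.01 and 2.53 in Ctrl. Its lowest library was OE 4 and its highest Ctrl 2, as for Gata4 on this scale. The same mean over 12 enterocyte markers had the same extremes, at 5.35 in OE 4 and 9.91 in Ctrl 2. Of the 8 genes, 3 are among those markers. Slc40a1, another of the 8, was instead lowest in Ctrl 2, at 1.10 scaled TPM, and was at 18.1 in OE 4. The part of enterocyte content in the mean of the 8 genes was not tested. Hox genes, which mark position along the body axis, summed over 30 genes to 17.8, 21.2, 12.5, 30.3 and 9.14 scaled TPM in OE, to 22.6 and 6.55 in KO, and to 10.3, 1.60 and 10.2 in Ctrl. In this sum OE 4 was the highest library and Ctrl 2 the lowest. Apoa4, an apolipoprotein of the proximal gut, was at 88.2, 17.5, 105, 0.195 and 51.9 in OE, at 9.06 and 24.0 in KO, and at 53.5, 2332 and 3.32 in Ctrl. Slc10a2 was in the range of the other libraries in OE 4, at 44.8 scaled TPM. Pdx1, a factor of duodenum and pancreas, was at 1.04 in Ctrl 2 and at 0 to 0.0947 in the other 9, and Onecut2, which also belongs to the duodenum, at 9.23 and at 0 to 0.389. These genes were named after their values were seen, and neither passed the filter. As deposited they were at only 0.307 and 2.72 TPM in Ctrl 2, against at most 0.106 and 0.408 TPM in the other 9. Whether the stretch of bowel sampled differed between libraries was not tested.

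**Figure D3:**
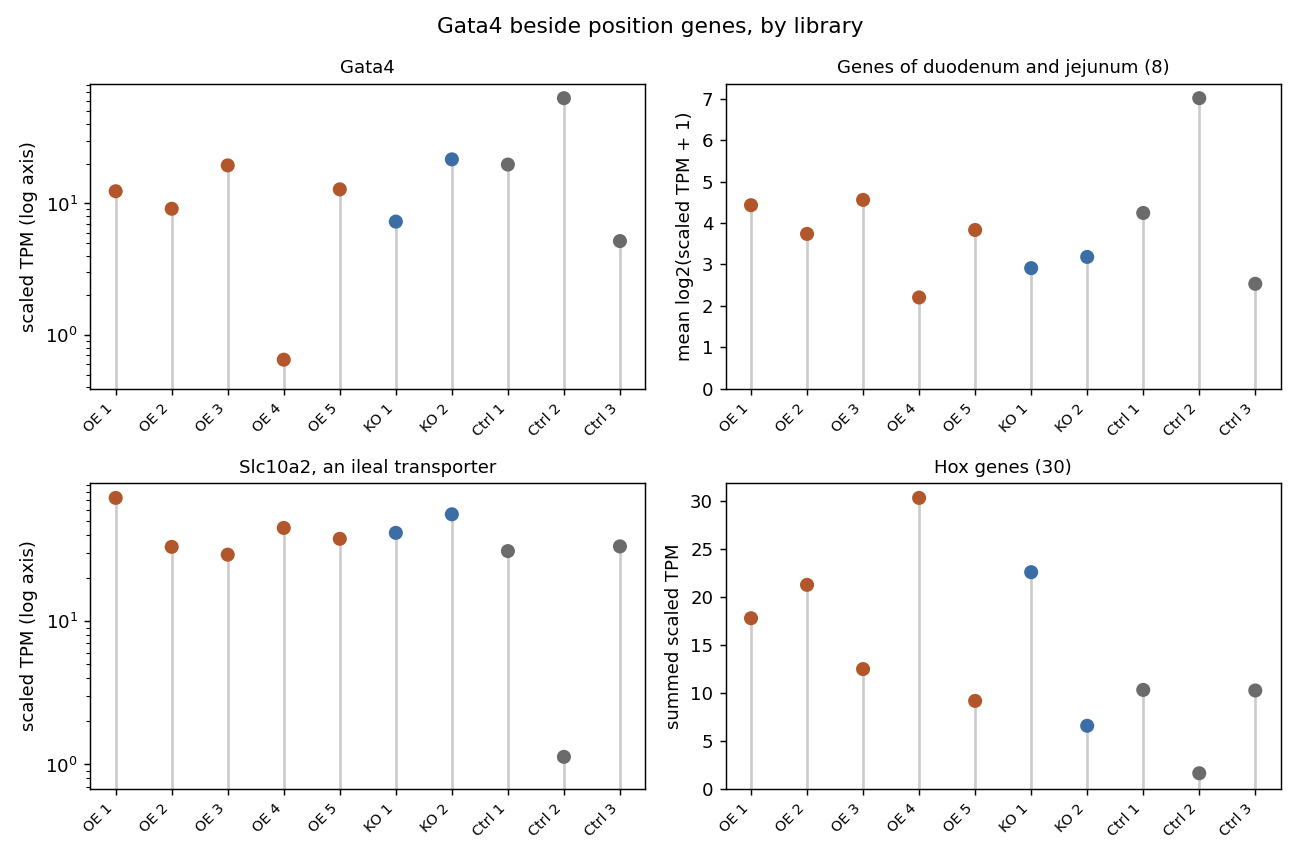
Gata4 (scaled TPM, log axis), mean log2(scaled TPM + 1) of 8 genes of duodenum and jejunum, Slc10a2 (scaled TPM, log axis) and summed scaled TPM of 30 Hox genes, with 1 point for each library along the x axis. Gata4 and the mean of the proximal genes are lowest in OE 4, at 0.651 and 2.20, and on this scale highest in Ctrl 2, where the Hox sum is lowest, at 1.60.

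CDX1 and CDX2 set intestinal fate. Cdx1 (ENSMUSG00000024619, chromosome 18) was at 41.1, 41.3, 36.4, 34.5 and 36.8 scaled TPM in OE, at 36.9 and 31.8 in KO, and at 24.9, 12.1 and 37.4 in Ctrl. The OE libraries lay close together above Ctrl 1 and Ctrl 2, but Ctrl 3 lay within their range. The means were 38.0 ± 3.03 in OE, 34.3 ± 3.59 in KO and 24.8 ± 12.6 in Ctrl. Cdx2 (ENSMUSG00000029646, chromosome 5, 147300805 to 147307270, minus strand) was at 106, 64.0, 63.5, 51.4 and 65.2 in OE, at 67.7 and 68.7 in KO, and at 60.6, 66.1 and 56.3 in Ctrl. In scaled TPM OE 1 alone stood high, and OE held both the highest and the lowest library. The means were 70.0 ± 21.0 in OE, 68.2 ± 0.694 in KO and 61.0 ± 4.92 in Ctrl. As deposited Cdx2 was at 88.3 TPM in OE 1, against 83.5 in OE 2 and 81.9 in KO 1, and it was lowest in Ctrl 2, at 19.5. Cdx1 over Cdx2 was 0.387, 0.645, 0.573, 0.671 and 0.565 in OE, 0.544 and 0.462 in KO, and 0.411, 0.183 and 0.664 in Ctrl. Cdx2 was thus the more abundant transcript in every library, and the low ratio of Ctrl 2 came with low Cdx1. In Ctrl 2 the summed level of 10 genes of dividing cells was also lowest, at 73.7 scaled TPM, against 260 to 370 in OE, 186 and 316 in KO, and 279 and 245 in the other Ctrl libraries. Their part in the Cdx1 level was not tested.

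Of the KLF pair, Klf4 was lowest and Klf5 highest in the same library, KO 1, in scaled TPM, while as deposited Klf4 was lowest in Ctrl 2, at 21.4 TPM. Klf4 (ENSMUSG00000003032, chromosome 4, 55527143 to 55532466, minus strand) was at 45.4, 39.5, 56.8, 32.4 and 69.9 scaled TPM in OE, at 25.3 and 41.1 in KO, and at 53.3, 72.8 and 41.6 in Ctrl. Both KO libraries lay below all Ctrl libraries, though the nearest were only 41.1 in KO 2 against 41.6 in Ctrl 3, and OE ran from 32.4 to 69.9. The means were 48.8 ± 14.8 in OE, 33.2 ± 11.2 in KO and 55.9 ± 15.8 in Ctrl. Klf5 (ENSMUSG00000005148, chromosome 14, 99298691 to 99315036, plus strand) was at 82.2, 98.1, 100.4, 86.9 and 61.4 in OE, at 123 and 87.7 in KO, and at 87.9, 61.6 and 102 in Ctrl. The highest Klf5 was that of KO 1, while in scaled TPM OE 5 held the lowest Klf5 and the second highest Klf4. As deposited Klf5 was lowest in Ctrl 2, at 18.1 TPM, and Klf4 was highest in OE 5, at 78.1 TPM. The Klf5 means were 85.8 ± 15.6 in OE, 105 ± 24.8 in KO and 83.9 ± 20.6 in Ctrl. Klf4 over Klf5 was 0.552, 0.402, 0.566, 0.372 and 1.14 in OE, 0.206 and 0.469 in KO, and 0.606, 1.18 and 0.408 in Ctrl, so Klf4 exceeded Klf5 in OE 5 and Ctrl 2 only.

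Klf4 also belongs to the genes that respond fast to handling, and it is made in fibroblasts, so markers of both were read beside it. The summed level of 10 immediate early genes such as Fos and Zfp36 was 165, 78.5, 93.2, 89.7 and 138 scaled TPM in OE, 62.3 and 74.7 in KO, and 68.3, 225 and 73.8 in Ctrl. Its highest library, Ctrl 2, and its lowest, KO 1, were also those of Klf4 in scaled TPM. The height of Ctrl 2 depends on the scaling for both. As deposited Ctrl 2 was the lowest library of the sum, at 66.2 TPM, and OE 5 the highest, at 154 TPM. The same libraries were lowest and highest for Klf4 as deposited. Of the 9 tested, 3 had positive and 6 negative differences in KO against Ctrl, where 46.7% of all genes were negative. In OE against KO all 9 were positive, where 49.9% of all genes were. Their median there was 0.48, and Klf4 differed by 0.53. However, 1 of the 9 reached 1 TPM in no KO library, and so passed the filter through other groups. The sum of 10 fibroblast markers was 111, 13.2, 50.8, 24.3 and 16.5 in OE, 79.2 and 23.4 in KO, and 10.7, 20.6 and 20.6 in Ctrl. In scaled TPM the fibroblast sum was thus higher in both KO libraries than in every Ctrl library, and Klf4 was lower, but as deposited the fibroblast sum was 24.6 TPM in KO 2, against 26.8 TPM in Ctrl 3. Of the 10, 8 passed the filter, but 4 of these reached 1 TPM in no Ctrl library, so no count or median of the list against Ctrl is given. None was at 0 in all libraries. The part of either in the Klf4 level was not tested.

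**Figure D4:**
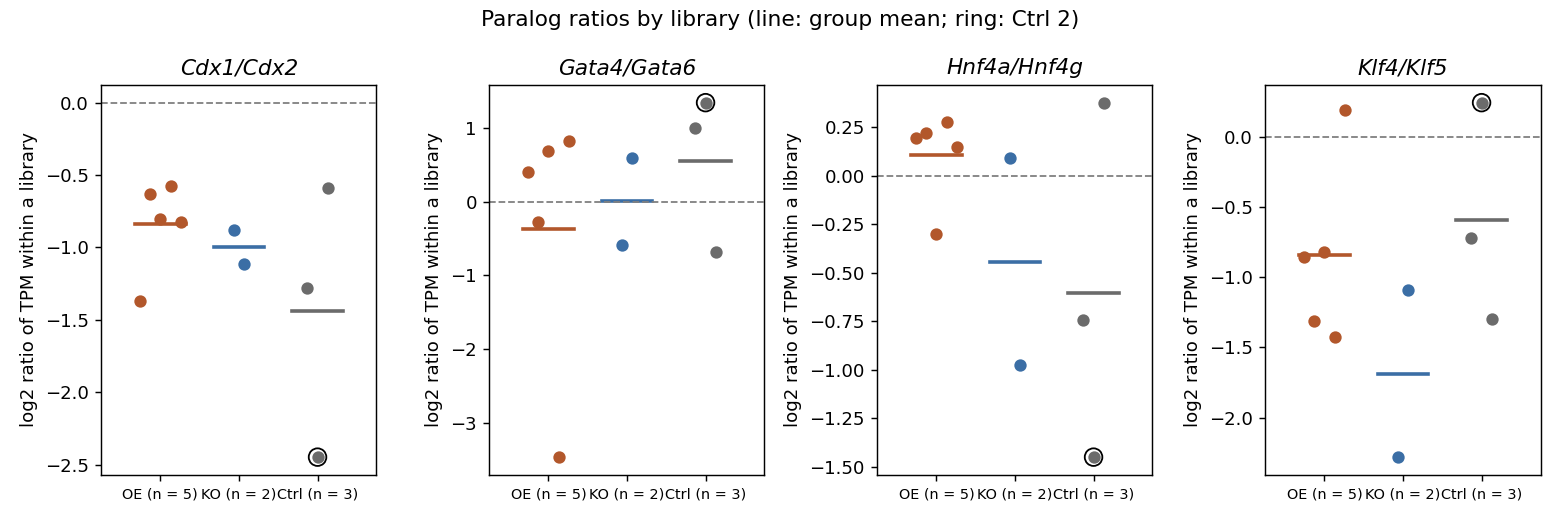
Log2 ratio of TPM between relatives within a library (y axis) for Cdx1 over Cdx2, Gata4 over Gata6, Hnf4a over Hnf4g and Klf4 over Klf5, with 1 point for each library of OE (n = 5), KO (n = 2) and Ctrl (n = 3). Lines mark group means, a ring marks Ctrl 2 and the dashed line marks equal levels, and the groups overlap in every pair.

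Deletion of Stat5 was compared first with Ctrl, and the 8 genes lay on both sides of 0. The test was limma fitted to log2(scaled TPM + 1) of all 13056 tested genes, with adjusted p-values over all of them and a threshold of 0.05. Of the 8 genes 0 were called, as were 0% of all tested genes, while 452 genes (3.46%) had an unadjusted p under 0.05. Robust and weighted limma fits also called 0 genes. A positive difference was found in 4 of the 8, against 53% of all genes, and the median of the 8 was 0.0041, against 0.04. Without Ctrl 2 the median of the 8 was 0.15. The largest difference among the 8 was that of Klf4, at -0.74 on the log2 scale (95% interval -1.58 to 0.099, limma adjusted p = 0.943), and at -0.53 without Ctrl 2. Cdx1 differed by 0.58 (-0.26 to 1.43), but by 0.16 without Ctrl 2. Gata4 differed by -0.56 (-3.03 to 1.91), and by 0.27 without Ctrl 2. The other 5 lay between -0.12 for Hnf4g and 0.33 for Klf5, all with limma adjusted p of 0.943 or higher. For Hnf4a the difference was 0.04, with an interval of -0.50 to 0.57. Without Ctrl 2 it was -0.11, and those of Hnf4g and Gata6 were 0.15 and 0.43. KO and Ctrl libraries did not overlap for Cdx2, higher in both KO libraries, and Klf4, lower in both. Over all tested genes 9.09% did not overlap with KO higher and 7.27% with KO lower, together 16.4%. As deposited, Cdx2 and Klf4 overlapped and Gata6 did not, with both KO libraries higher.

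OE was compared with the same Ctrl libraries, so the comparison shares them with the one before. Of the 8 genes 0 were called by limma, as were 0% of all genes, with 797 genes (6.10%) at an unadjusted p under 0.05 and 0 called by robust and weighted fits. A positive difference was found in 3 of the 8, against 52.1% of all genes, with a median of -0.11, against 0.02. Without Ctrl 2 the median of the 8 was -0.08. Cdx1 had the smallest unadjusted p of the 8, with a difference of 0.73 (0.050 to 1.40, limma adjusted p = 0.755), which was 0.30 without Ctrl 2. Hnf4g differed by -0.72 (-1.47 to 0.038, limma adjusted p = 0.755), and by -0.44 without Ctrl 2. Gata4 differed by -1.15 (-3.12 to 0.83, limma adjusted p = 0.769), and by -0.31 without Ctrl 2. The other 5 lay between -0.44 for Gata6 and 0.16 for Cdx2. For Hnf4a the difference was -0.0079, with an interval of -0.44 to 0.42. Without Ctrl 2 it was -0.15, and those of Klf5 and Gata6 were -0.16 and 0.017. In 0 of the 8 genes did OE and Ctrl libraries separate without overlap, against 2.21% of all genes with OE higher and 1.52% with OE lower, together 3.73%.

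OE against KO uses no Ctrl library in its means and spans the widest range of Stat5 levels. Of the 8 genes 0 were called, as were 0% of all genes, with 385 genes (2.95%) at an unadjusted p under 0.05, and limma adjusted p was 1 for all 8. Robust and weighted fits also called 0 genes. A positive difference was found in 2 of the 8, against 49.9% of all genes, with a median of -0.17, against -0.00062. The largest differences were -0.59 for Hnf4g (-1.45 to 0.27), -0.59 for Gata4 (-2.85 to 1.68) and 0.53 for Klf4 (-0.24 to 1.30). Hnf4a differed by -0.05 (-0.54 to 0.44) and Cdx2 by -0.0057 (-0.62 to 0.60). The libraries of OE and KO overlapped for all 8 genes, against 4.04% of all genes without overlap and higher in OE and 4.43% lower in OE, together 8.47%. The interval of Gata4 was the widest of the 8 in each comparison, so a change of that gene was the hardest to detect.

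**Figure D5:**
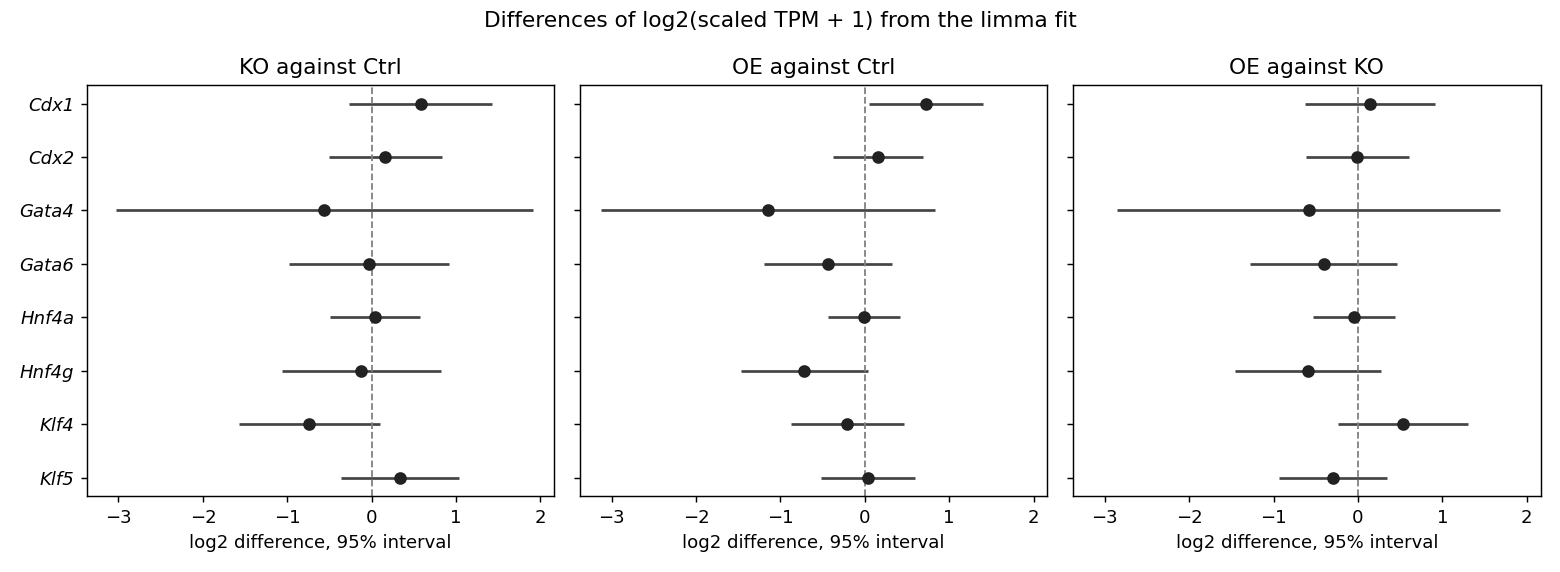
Difference of log2(scaled TPM + 1) for each of the 8 genes (points) with its 95% interval from limma (lines) in 3 panels, for KO against Ctrl, OE against Ctrl and, on the right, OE against KO. Hnf4a has the narrowest interval and Gata4 the widest, and the interval leaves out 0 only for Cdx1 in OE against Ctrl, where the adjusted p is 0.755.

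Among other transcription factors of gut endoderm and epithelium, no gene was called, and the medians against Ctrl changed sign with the scaling or without Ctrl 2. Of 18 listed, 16 passed the filter, with medians of 0.05 in KO against Ctrl, -0.08 in OE against Ctrl and 0.09 in OE against KO, beside 0.04, 0.02 and -0.00062 for all genes. With deposited TPM, which shift the all-gene median upward against Ctrl, the first 2 were 0.43 and 0.29, and without Ctrl 2 they were -0.08 and -0.09. Foxa2, 1 of the 16, reached 1 TPM in no Ctrl library and so passed only through OE and KO, and the medians against Ctrl include it. The 4 most abundant were Smad4, Elf3, Ehf and Maf. Smad4, a mediator of BMP and TGF-beta signals that works with HNF4 in enterocytes, averaged 112 ± 12.8 scaled TPM in OE, 142 ± 30.4 in KO and 141 ± 41.1 in Ctrl. Elf3, an epithelial ETS factor, averaged 134 ± 25.0 in OE, 116 ± 24.9 in KO and 106 ± 47.3 in Ctrl. Of 30 Hox genes in the files, 7 passed and 0 were called. Of the 7, 3 reached 1 TPM in no Ctrl library and so passed only through OE and KO, and for that reason no count or median of the list against Ctrl is given. Hoxb9, the most abundant, averaged 5.44 ± 3.36 in OE, 3.80 ± 2.84 in KO and 1.34 ± 1.27 in Ctrl.

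Genes known to depend on HNF4 factors had lower medians in both comparisons with Ctrl, and much of that went with Ctrl 2. Of 13 HNF4 target genes 0 were called. All 13 had negative differences in KO against Ctrl, where 46.7% of all genes did, with a median of -0.96 that was -0.31 without Ctrl 2 and -0.42 as deposited. In OE against Ctrl 12 were negative (47.9% of all genes), with a median of -0.47 that was 0.13 without Ctrl 2 and 0.04 as deposited, and in OE against KO 12 were positive and 1 negative (50.1% of all genes were negative), with a median of 0.47. Fabp2, the intestinal fatty acid binding protein, averaged 999 ± 987 scaled TPM in OE, 321 ± 142 in KO and 1437 ± 1574 in Ctrl. Within OE it ran from 61.4 to 2627, while Hnf4a itself ran from 71.7 to 85.0 in the same libraries. In summed scaled TPM of the 13 genes, OE 4 was lowest at 717 and Ctrl 2 highest at 12460, and the sum of 12 enterocyte markers, of which 4 are on both lists, was likewise lowest in OE 4 at 1211 and highest in Ctrl 2 at 15960. As deposited OE 4 was again lowest for both, but OE 1 was highest, at 5518 TPM against 3671 TPM in Ctrl 2 for the 13 genes and at 7564 against 4701 TPM for the enterocyte markers. All 12 enterocyte markers had negative differences in KO against Ctrl (median -1.11, -0.26 without Ctrl 2 and -0.58 as deposited). The part of enterocyte content in these values was not tested. Of 8 CDX target genes 0 were called, with 0 positive in KO against Ctrl (median -0.27, -0.05 without Ctrl 2 and 0.26 as deposited), 1 in OE against Ctrl (-0.51, -0.18 without Ctrl 2 and -0.0066 as deposited) and 3 in OE against KO (-0.16). Cdh17, an intestinal cadherin, averaged 247 ± 28.1 in OE, 307 ± 92.3 in KO and 319 ± 120 in Ctrl. The 7 tested genes of duodenum and jejunum had medians of -2.37 in KO against Ctrl, -0.70 in OE against Ctrl and 0.74 in OE against KO, and the first 2 became -0.29 and 0.64 without Ctrl 2 and -1.82 and -0.19 as deposited. The 7 ileal genes had medians of 0.17, 0.39 and 0.27 in the same order, of which the first 2 became -0.0032 and 0.25 without Ctrl 2 and 0.70 and 0.89 as deposited, and 0 members of either list were called. Lct, on the CDX list and the list of duodenum and jejunum, reached 1 TPM in no KO library. It passed the filter only through OE and Ctrl, and the values of both lists in comparisons with KO include it.

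Markers of the other cells that a crypt preparation may hold were counted in OE against KO, which uses no Ctrl library in its means, and 0 genes of these lists were called. Among epithelial lists, differences were positive for 7 of 8 goblet cell genes (median 0.39), 7 of 8 Paneth cell genes (0.86), all 7 tested tuft cell genes (0.81), 2 of 7 enteroendocrine genes (-0.16), 3 of 8 stem cell genes (-0.10), 9 of 10 genes of dividing cells (0.31) and 11 of 12 enterocyte markers (0.53). Among the lists for cells outside the epithelium they were positive for all 7 tested T cell genes (1.70), 5 of 6 B and plasma cell genes (0.80), 1 of 9 macrophage and dendritic cell genes (-0.34) and 1 of 8 fibroblast markers (-0.74), while smooth muscle and endothelial lists had 1 tested gene each. In the tuft cell list and the macrophage and dendritic cell list 1 tested gene each reached 1 TPM in no KO library, and so passed the filter through other groups. The T cell list, singled out here after its values were seen, summed over 8 genes to 274, 77.6, 150.2, 231 and 326 scaled TPM in OE, to 25.3 and 67.1 in KO, and to 44.2, 154 and 129 in Ctrl. Both KO libraries were below all OE libraries in that sum, and of all tested genes taken singly 4.04% separated in that direction. The sum of immediate early genes separated too, at 78.5 or more in OE and at 62.3 and 74.7 in KO. The part of the listed cell types in the levels of the 8 genes was not tested.

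Genes most like each factor across the 10 libraries were taken by Pearson's r of log2(scaled TPM + 1) among 7331 protein-coding genes with a mean of at least 5 scaled TPM. All points share the scaling, and Ctrl 2 weighs on many of them. The genes named are the highest of all those compared, so a high r is built into their choice. Spearman's rho, which uses only the order of the libraries, ran among them from 0.539 for 2200002D01Rik with Cdx2 to 1 for Gramd1c with Gata4. For Gata4 the top 3 were Slc2a9 (r = 0.973), Gramd1c (0.967) and Nfyc (0.953), and they were the top 3 without Ctrl 2 as well, at 0.960, 0.948 and 0.944. For Klf4 they were Cldn4 (0.940), Tinf2 (0.926) and Pxdc1 (0.888), also the top 3 without Ctrl 2. For Klf5 the first gene was Nr5a2, at 0.948 with all libraries and 0.946 without Ctrl 2, where it stayed first. Next were Slco2b1 (0.941) and Phldb1 (0.920), which came to ranks 4 and 5 without Ctrl 2. Nr5a2, also called Lrh-1, is a nuclear receptor of crypt cells, and Cldn4 encodes a tight junction claudin. For the remaining 5 factors the leading genes changed without Ctrl 2, so their ranks without it are given. For Hnf4g they were Fnbp1l (0.965), Lysmd3 (0.964) and Ocln (0.956), which came to ranks 5, 8 and 20. For Hnf4a they were Lrig1 (0.951), Cad (0.948) and Tut4 (0.933), at ranks 5, 7 and 32. Lrig1 encodes a receptor inhibitor of stem and progenitor cells, and Ocln encodes occludin of tight junctions. For Cdx1 they were Alg5 (0.982), Mecr (0.973) and Psmb5 (0.971), at ranks 4, 16 and 32. For Cdx2 they were Ginm1 (0.906), 2200002D01Rik (0.895) and Naaladl1 (0.891), at ranks 17, 13 and 22. For Gata6 they were Rab3gap2 (0.944), Vps37a (0.943) and Cds1 (0.942), at ranks 32, 34 and 26. In these last 3 lists only Alg5 stayed among the first 10.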

How the data were processed

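Total RNA from ileal crypts was sequenced single-end in 10 libraries, 5 OE, 2 KO and 3 Ctrl, per the labels' protocols. The deposited values are TPM for each Ensembl gene ID, per the file headers in 9 libraries. For Ctrl 1, whose header names no unit, it was taken from the values. The submitters' processing notes name TopHat, Cufflinks and mm10. Versions, the tool behind the TPM and the annotation were not given in the sources used here. Deposited TPM summed to 979539 to 994373 per library. They were divided by median-ratio factors over 11146 genes above 0 in all libraries. Genes with at least 1 TPM in at least 2 libraries were tested. The test was limma 3.58.1, run in R 4.3.3 with an intensity trend, 3 group means over all 10 libraries and Benjamini-Hochberg adjustment. Its scale, log2(scaled TPM + 1), understates changes of low genes. The fit was checked on simulated data. Symbols and coordinates are from GENCODE M21. The 8 genes and all lists were chosen with earlier results of these data known. List members named with values are among the 4 most abundant of their list, except Pdx1, Onecut2, Slc40a1 and Cubn, which were named after their values were seen. Settings varied were the scaling, pseudocount, filter, samples in the fit, moderation, library weights, a replicate block, a Y-linked term and the libraries left out. A gene of the colon list is not reported here.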

Additional observations from a re-analysis of the deposited data

Results flagged for a closer look

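Within the 5 OE libraries, 4 of 12 measures had a library whose gap to its nearest neighbour, as a share of the group's range on the log2 scale, was above Dixon's critical value of 0.71, which chance passes in about 1 in 20 groups. Gata4 in OE 4 was at 0.651 scaled TPM (share 0.720). The Gata4 over Gata6 ratio in OE 4, which rests on the same Gata4 value, was 0.0907 (share 0.743). Hnf4g in OE 3 was at 104 scaled TPM (share 0.792). The Hnf4a over Hnf4g ratio in OE 3, which rests on the same Hnf4g value, was 0.813 (share 0.780). OE 3 and OE 4 are also the libraries of OE with low Y-linked levels.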

How the results depend on the processing

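Over 23 alternative settings, the differences of the 8 genes kept their direction and side of the threshold in 508 cases and changed sign in 44; the lowest adjusted p of any was 0.652 in KO against Ctrl, 0.399 in OE against Ctrl and 0.839 in OE against KO. The cause of sign changes was not tested. With TPM as deposited the all-gene median moved to 0.38 in KO against Ctrl and 0.36 in OE against Ctrl. There KO against Ctrl gave 0.47 for Gata6 and 0.41 for Hnf4g, and OE against Ctrl gave 0.042 for Gata6, 0.49 for Hnf4a and 0.29 for Klf4. Quantile normalization gave 0.043 for Gata6 in KO against Ctrl, 0.079 for Hnf4a in OE against Ctrl and 0.016 for Cdx2 in OE against KO. TPM over genes not encoded in mitochondria gave 0.068 for Gata6 in KO against Ctrl and 0.056 for Hnf4a in OE against Ctrl. Library weights gave 0.29 for Gata6 and -0.029 for Hnf4a in KO against Ctrl and -0.062 for Klf5 in OE against Ctrl. A term for low Y-linked libraries gave 0.12 for Cdx2 and 0.059 for Gata4 in OE against KO. Without Ctrl 2, Ctrl 3, OE 1, OE 3 and OE 4, chosen after seeing the data, KO against Ctrl gave 0.32 for Gata6 and -0.0059 for Hnf4a, and OE against Ctrl gave -0.18 for Klf5, with 0 genes called in each comparison; this leaves 1 Ctrl library, which is assumed to vary like the other groups.

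As reported, each comparison called 0 genes. Without a filter, 24 genes were called in KO against Ctrl and 25 in OE against KO, and with only the groups compared 1 in KO against Ctrl and 1 in OE against Ctrl; 0 of these were among the 8. Deviations from the group means had correlations of -0.18 to 0.06 between samples with the same replicate number. Deviations of the 2 KO libraries mirror each other and Ctrl has only 3 libraries. These values therefore cannot tell whether the number marks a shared batch. With the number as a replicate block, 3 genes were called in OE against Ctrl and 0 in both comparisons with KO. The differences with that block were 0.0028 for Hnf4a in OE against Ctrl and 0.24 for Cdx2 and 0.33 for Gata4 in OE against KO. Leaving out each library in turn called 0 to 2 genes in KO against Ctrl (1 without OE 3, 2 without KO 1), 0 to 1 in OE against Ctrl (without KO 1 and without KO 2) and 0 to 2 in OE against KO (1 without OE 1 and without OE 3, 2 without KO 1); with 1 KO library left, that library is assumed to vary like the other groups. In KO against Ctrl the differences then ran from -1.41 to 0.27 for Gata4, -0.31 to 0.43 for Gata6, -0.11 to 0.16 for Hnf4a and -0.64 to 0.40 for Hnf4g. In OE against Ctrl they ran from -0.0030 to 0.26 for Cdx2, -0.72 to 0.017 for Gata6, -0.15 to 0.12 for Hnf4a and -0.16 to 0.20 for Klf5. In OE against KO they ran from -0.17 to 0.093 for Cdx2 and -1.31 to 0.14 for Gata4. TPM give no depth, so no counting error can be given for low values such as Gata4 in OE 4.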
